A study of Mus musculus with 18 samples.

Results

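The 9 lipase genes described here are Pnpla2, Lipe, Mgll, Pnpla3, Abhd6, Abhd5, Lipa, Lpl and Gpihbp1. They were chosen by name, as the genes of the intracellular and vascular lipases and their cofactors, and all 9 were found among the 20295 genes of the count table. Of these, 8 passed the filter on low counts and belong to the 12156 genes tested, and Gpihbp1 did not pass. The counts are from RNA-seq of BAT-LgT cells, a WT mouse brown preadipocyte line made immortal with SV40 large T antigen and differentiated in culture, so all 18 samples share 1 line. On day 7, cells of the groups Vehicle, ISO and SR-3420 were given DMSO, 100 nM of the β-adrenergic agonist isoproterenol or the ABHD5 ligand SR-3420 for 3 h. The other 3 groups, whose names carry the prefix Lipase Inh. (for example Lipase Inh. + ISO), got the same 3 treatments after 1 h with inhibitors of ATGL and of HSL together. The study's methods list the HSL inhibitor as one of monoacylglycerol lipase, the product of Mgll, as well. Each of the 6 groups holds 3 samples. The dose of SR-3420 is 10 µM per the labels and another in the study's text, and the dose given to these cells was not settled here.

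Fat cells store triacylglycerol in lipid droplets and break it down stepwise. ATGL, the product of Pnpla2, releases the first fatty acid, HSL (Lipe) acts mainly on the diacylglycerol that is left, and monoacylglycerol lipase (Mgll) finishes the cascade. ATGL is switched on by its co-activator ABHD5, which perilipin holds back on the droplet until β-adrenergic signalling or an ABHD5 ligand sets it free. Outside this cascade, lysosomal acid lipase (Lipa) digests lipid in lysosomes, and lipoprotein lipase (Lpl) is secreted by adipocytes and carried by GPIHBP1 to the capillary wall, where it hydrolyses the triacylglycerol of lipoproteins. The comparisons ask how the messenger RNA of these genes responded to ISO and to SR-3420, and whether each response differed when the inhibitors were present.

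The shallowest library was Lipase Inh. + SR-3420 replicate 2 with a total of 4263755, of which Lars2, a mitochondrial leucyl-tRNA synthetase gene, took 18.3%. The other 17 totals ranged from 10310447 to 21205032. The adipocyte markers Adipoq, Fabp4 and Pparg had at least 1696 counts in every library and Ucp1 at least 13, whereas Dio2, which encodes a thyroid hormone-activating deiodinase of brown fat, had 0 to 6. Of 8 endothelial markers 6 had any count, and their summed level was at most 0.955 CPM (counts scaled by library size). The macrophage list summed to at most 15.4 CPM. In it Ptprc was at 0 in all 18 libraries, while Cd68 had at least 10 counts and Cd14 at least 9 in every library. The preadipocyte list summed to between 24.5 and 45.3 CPM. Preadipocyte markers summed to 25.6 to 32.4 CPM in Vehicle samples, against 33.8 to 45.3 CPM in ISO samples and 35.0 to 37.7 CPM in SR-3420 samples. In the inhibitor groups the sums were 24.5 to 31.3 CPM in Vehicle samples, and those of ISO, 29.2 to 41.6 CPM, and of SR-3420, 25.0 to 27.3 CPM, overlapped them. The 4 smooth and skeletal muscle markers, each with a count in some library, summed to 3.69 to 9.47 CPM over the 18 libraries. Among them Myh11 spanned 1.62 to 8.73 CPM, Cnn1 reached at most 1.46 CPM and Myod1 at most 1.53 CPM. Myog was at 0 in 15 libraries. Vehicle samples spanned 7.14 to 7.72 CPM for this list. Those of ISO lay below (5.14 to 6.46 CPM) and those of Lipase Inh. + Vehicle above (8.26 to 9.47 CPM). The 8 brown adipocyte markers spanned 6527 to 7375 CPM in Vehicle samples. All ISO samples exceeded this range, at 8632 to 9932 CPM. Samples given SR-3420 alone, at 6144 to 6508 CPM, or inhibitors alone, at 5888 to 6324 CPM, fell short of it. Every Lipase Inh. + ISO sample reached at least 7550 CPM for this list, above all those of Lipase Inh. + Vehicle. Macrophage sums in Lipase Inh. + SR-3420 were at most 6.104 CPM, while in Lipase Inh. + Vehicle the lowest was 6.76 CPM. Endothelial sums were at least 0.576 CPM with SR-3420 alone and at most 0.541 CPM in Vehicle samples. These sums rest on few reads, since no endothelial marker had more than 9 counts in any library. The part of these cell types in the results below was not tested. In bulk samples, fewer cells of a type and less RNA per cell cannot be told apart.

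Each change is given under 2 scalings of the libraries. TMM scaling assumes that most genes do not change and aligns the libraries on them, while total-count scaling divides each gene by all counts of its library. Against TMM, total counts lowered the median log2 fold change of all tested genes by 0.31 for ISO vs Vehicle, 0.16 for SR-3420 vs Vehicle and 0.23 for ISO with inhibitors. The shift was -0.10 for SR-3420 with inhibitors, -0.02 for the inhibitors alone, -0.15 for ISO vs SR-3420 and -0.13 for the same comparison with inhibitors. With Lars2 left out of the totals, the median log2 fold change of all tested genes with SR-3420 and inhibitors was -0.02 instead of -0.10. For ISO vs SR-3420 with inhibitors it was -0.21 instead of -0.14. Both comparisons hold the library in which Lars2 was abundant. Levels are CPM of TMM-scaled libraries unless stated otherwise. A gene is said to rise or fall where edgeR's quasi-likelihood test gave a Benjamini-Hochberg adjusted p of at most 0.05 over all tested genes.

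The sequences just upstream of 4 members are shown because these genes took distinct courses: Pnpla3 fell under every stimulus, Abhd5 responded to ISO, and Lipe and Mgll are the later enzymes of the cascade. Each is the 300 bases before the RefSeq 5′ end given in the count table, read from the mm9 genome on the gene's own strand, 5′ to 3′. Capitals mark matches, on either strand, to the cAMP response element TGACGTCA or its core TGACG, the E-box CACGTG, the nuclear receptor core AGGTCA and the FoxO motif TGTTTAC. The windows lie at chr15:83997946-83998245 on the plus strand for Pnpla3, chr9:122260434-122260733 on the plus strand for Abhd5, chr7:26181007-26181306 on the minus strand for Lipe and chr6:88674106-88674405 on the plus strand for Mgll.
Pnpla3: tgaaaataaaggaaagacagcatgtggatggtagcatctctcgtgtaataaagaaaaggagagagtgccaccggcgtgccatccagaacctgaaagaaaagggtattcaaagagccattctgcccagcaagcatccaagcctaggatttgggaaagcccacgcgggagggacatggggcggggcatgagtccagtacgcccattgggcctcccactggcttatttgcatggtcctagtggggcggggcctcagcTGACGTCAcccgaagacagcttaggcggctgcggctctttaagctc
Abhd5: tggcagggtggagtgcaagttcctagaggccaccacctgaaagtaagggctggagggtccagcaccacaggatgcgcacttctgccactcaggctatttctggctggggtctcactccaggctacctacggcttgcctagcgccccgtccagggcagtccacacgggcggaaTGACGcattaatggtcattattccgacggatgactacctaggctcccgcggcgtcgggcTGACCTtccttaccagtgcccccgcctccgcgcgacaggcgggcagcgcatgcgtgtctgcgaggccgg
Lipe: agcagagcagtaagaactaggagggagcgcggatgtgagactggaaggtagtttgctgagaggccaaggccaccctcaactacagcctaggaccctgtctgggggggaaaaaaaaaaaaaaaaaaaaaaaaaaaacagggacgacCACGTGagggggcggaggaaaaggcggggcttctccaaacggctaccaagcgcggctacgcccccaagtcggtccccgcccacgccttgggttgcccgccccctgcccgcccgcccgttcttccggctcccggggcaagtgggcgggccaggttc
Mgll: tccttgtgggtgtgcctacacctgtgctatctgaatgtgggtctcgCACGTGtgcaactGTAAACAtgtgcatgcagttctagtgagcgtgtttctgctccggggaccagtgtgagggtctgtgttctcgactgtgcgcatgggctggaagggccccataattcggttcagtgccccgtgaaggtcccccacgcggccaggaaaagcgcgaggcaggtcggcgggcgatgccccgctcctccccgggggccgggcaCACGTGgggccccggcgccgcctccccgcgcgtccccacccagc

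Pnpla3 held the only full cAMP response element among the 9 members, 46 to 39 bases upstream of its 5′ end, and this palindrome contains the core TGACG on each strand. Windows of the same length held TGACGTCA in 2.98% and TGACG in 29.9% of the 12156 tested genes. Abhd5 had a core TGACG 128 to 124 bases upstream and the nuclear receptor core on the minus strand 69 to 64 bases upstream. AGGTCA was found in 12.7% of windows, among them that of Lipa. Lipe had an E-box 155 to 150 bases upstream, and Mgll had E-boxes 254 to 249 and 44 to 39 bases upstream, where 9.55% of windows held CACGTG. Mgll also had a FoxO motif on the minus strand, 241 to 235 bases upstream, found in 2.52% of windows. Pnpla2, Abhd6, Lpl and Gpihbp1 had none of these letters in their windows. A match is a description of the sequence only.

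Compared per kilobase of counted length, Lpl was the highest member in all 6 groups. With Vehicle it stood at 2622 ± 322 CPM per kb (mean ± SD, n = 3), followed by Pnpla2 at 800 ± 29.1 and Lipe at 748 ± 31.5 CPM per kb. Mgll followed at 169 ± 11.0, Abhd5 at 59.3 ± 7.43, Lipa at 53.5 ± 3.33, Pnpla3 at 24.7 ± 2.66 and Abhd6 at 12.5 ± 1.72 CPM per kb. Pnpla2 and Lipe, and Abhd5 and Lipa, were closer to each other than the sum of their SDs. The order of Pnpla2 and Lipe turned with ISO, with SR-3420 and with SR-3420 after inhibitors. Lipe reached 1145 ± 32.1 CPM per kb with ISO and 1276 ± 51.4 with SR-3420, against 816 ± 50.6 and 678 ± 9.50 CPM per kb for Pnpla2. In Lipase Inh. + SR-3420 it was 947 ± 69.5 against 761 ± 28.5 CPM per kb. Mgll and Abhd5 drew level with ISO and inhibitors, at 126 ± 7.82 and 123 ± 7.55 CPM per kb. The 9 genes took 1.36% to 2.76% of all counts of a library, and Lpl alone took 0.761% to 2.31%.

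**Figure D1:**
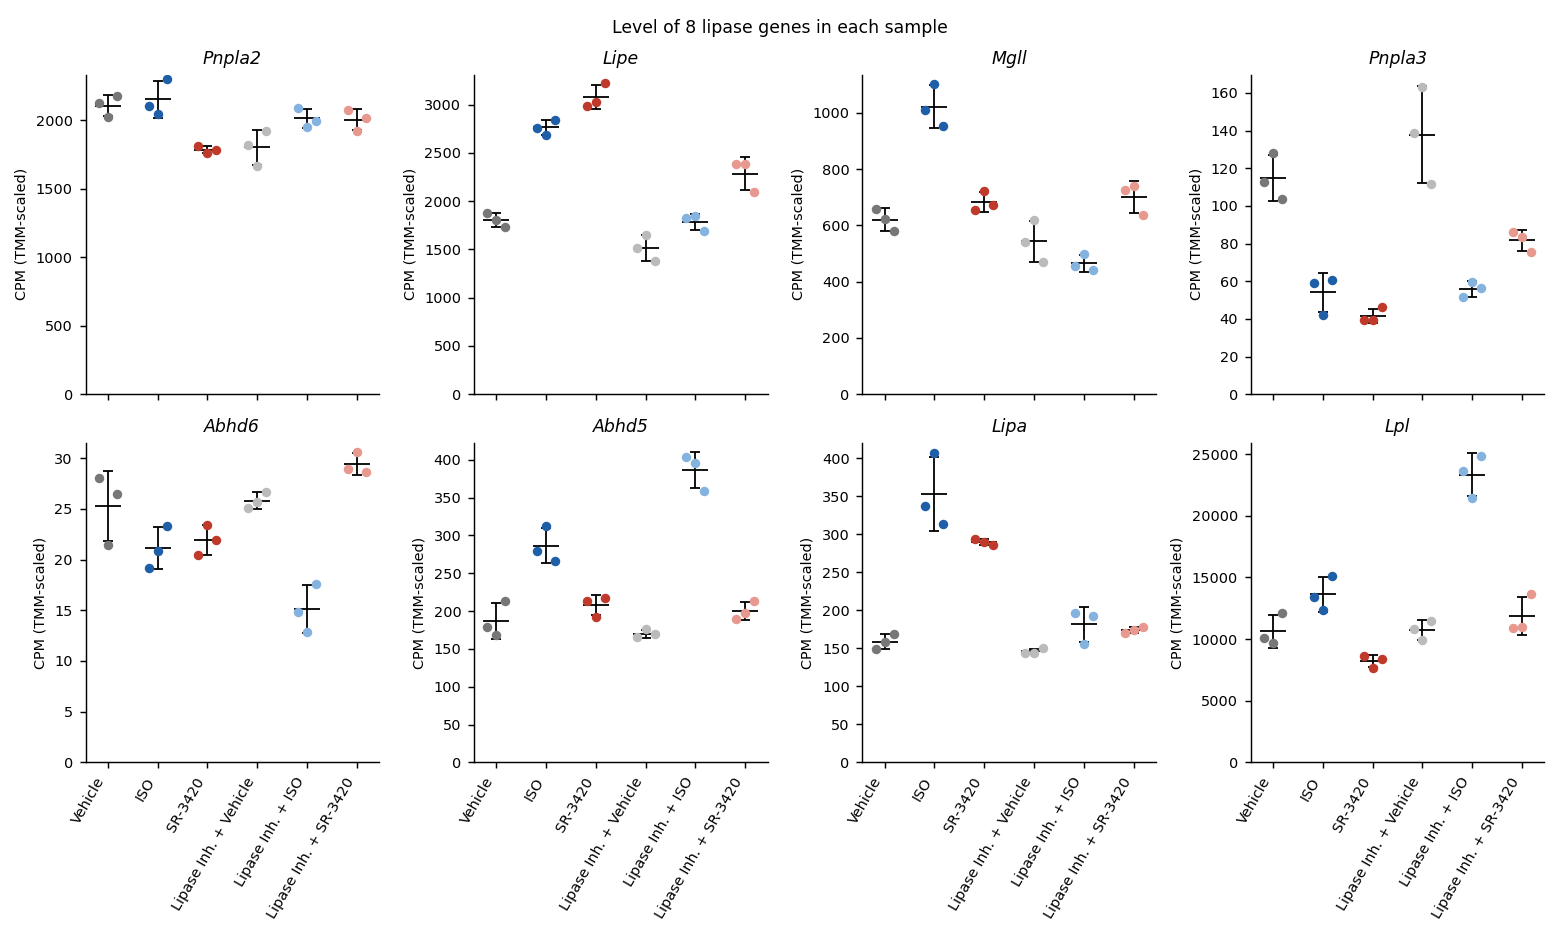
Level of 8 lipase genes in each of the 18 samples, in CPM of TMM-scaled libraries on a linear axis from 0, by group (points, single samples; horizontal line and bar, mean and SD of 3). Lpl and Abhd5 were highest in Lipase Inh. + ISO, Lipa and Mgll in ISO, Lipe in SR-3420, and Pnpla3 was lowest in SR-3420.

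ISO without inhibitors raised 5 of the 8 tested members, namely Abhd5, Lipa, Lipe, Lpl and Mgll, and lowered Pnpla3. Among all genes tested, 26.8% passed as higher and 25% as lower in this comparison under TMM. Under total counts 4 members were higher and 3 lower, where 12.3% of all genes were higher and 49.4% lower, since Lpl no longer passed and Abhd6 and Pnpla2 passed as lower. The median log2 fold change of the 8 members was 0.49 under TMM and 0.18 under total counts. The study called genes induced from a log2 fold change of 1, and that size is used here in both directions as a further threshold. Past both thresholds under TMM were 2 members, Lipa and Pnpla3, and 9.11% of all genes, and under total counts Pnpla3 alone and 12.6% of all genes.

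SR-3420 without inhibitors raised Lipa and Lipe and lowered Lpl, Pnpla2 and Pnpla3. The background under TMM was 26% higher and 25.4% lower, so the 2 higher and 3 lower members were near the share of all genes. Under total counts Abhd6 joined the lower members, giving 2 higher and 4 lower beside 16% and 35.9% of all genes. Only Pnpla3 passed both thresholds under either scaling, as did 6.33% of all genes under TMM and 6.88% under total counts. The median member moved by -0.03 under TMM and by -0.19 under total counts.

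The inhibitors alone, Lipase Inh. + Vehicle vs Vehicle, gave 0 of 8 members past the edgeR test on group means under either scaling, while 3 were lower at an unadjusted p under 0.05, namely Lipe, Pnpla2 and Mgll. At an adjusted p of at most 0.05, 0.485% of all genes were higher and 0.428% lower under TMM, 0.239% and 0.329% under total counts, and 0.0494% passed both thresholds under TMM. Lipe was at -0.25 (95% interval from -0.41 to -0.10, adjusted p = 0.141) and Pnpla2 at -0.23 (-0.37 to -0.09, adjusted p = 0.15), and in both genes all 3 samples with inhibitors lay below all 3 with Vehicle. With DESeq2 both fell, Lipe with an adjusted p of 0.0256 and Pnpla2 with 0.0149. The other members had log2 fold changes from -0.19 for Mgll to 0.26 for Pnpla3, with the interval of Mgll reaching from -0.37 to -0.01 and that of Lpl from -0.21 to 0.24.

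With inhibitors present, ISO moved all 8 tested members under TMM. Abhd5, Lpl, Lipa, Lipe and Pnpla2 rose and Abhd6, Mgll and Pnpla3 fell, against 29.4% of all genes higher and 28.3% lower. Under total counts Abhd5 and Lpl alone were higher and the same 3 members were lower, beside 16.2% and 42.1% of all genes. Abhd5, Lpl and Pnpla3 passed both thresholds under TMM, as did 13.1% of all genes, and Pnpla3 alone under total counts, as did 15.4%. In the same comparison the summed muscle markers were 8.26 to 9.47 CPM with Vehicle and 3.69 to 4.57 CPM with ISO, without overlap, and their part was not tested.

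SR-3420 with inhibitors raised Lipe and Mgll and lowered Pnpla3. The background was 2.99% higher and 1.36% lower, with 0.296% past both thresholds under TMM and 0 members among them. Under total counts Lipe was higher and Pnpla3 lower, beside 0.946% and 1.89% of all genes. With Lars2 left out of the totals, 300 of 12175 genes were higher and 194 lower. The comparison rests in part on the shallow library in which Lars2 was abundant. Without it Lipe stayed at 0.56 (adjusted p = 0.000249) and Pnpla3 at -0.77 (adjusted p = 0.00386), but Mgll at 0.32 no longer passed (adjusted p = 0.0832).

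**Figure D2:**
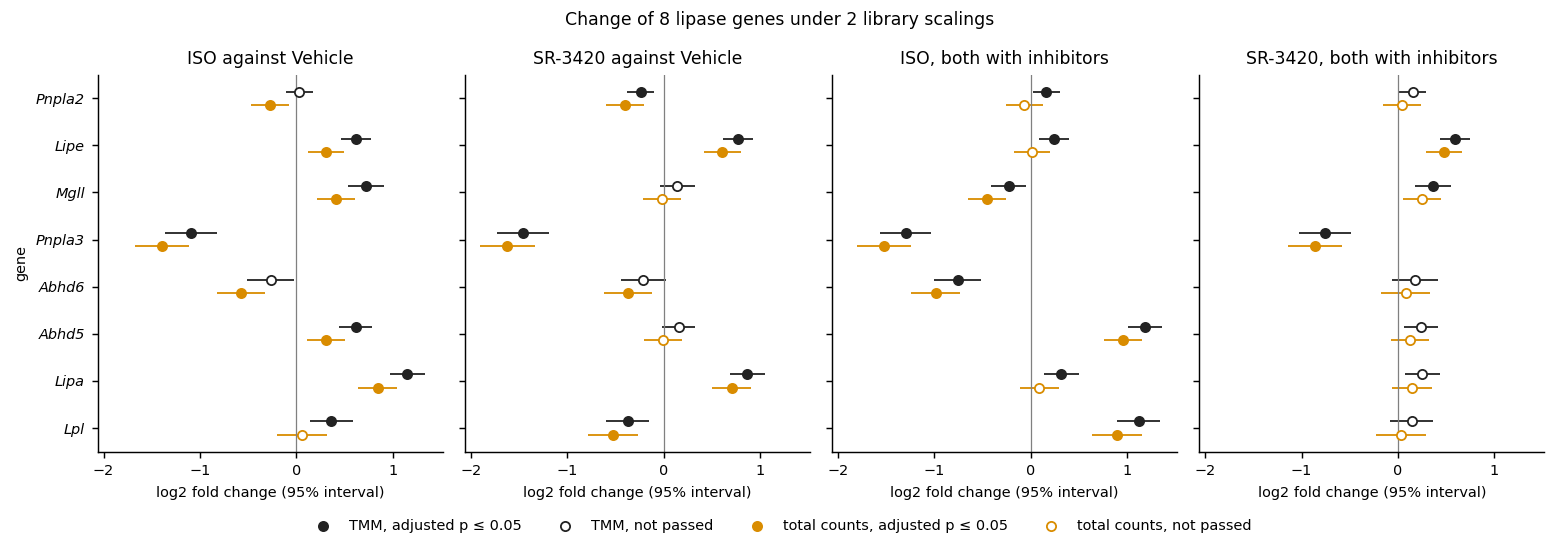
Log2 fold change of 8 lipase genes with its 95% interval for ISO and SR-3420 against their vehicle group, without and with lipase inhibitors, under TMM (black) and total-count scaling (orange). Filled points passed an adjusted p of at most 0.05. Total counts placed every estimate to the left of its TMM estimate.

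Pnpla2 (NM_001163689, chr7:148641087-148646642, plus strand of mm9) encodes ATGL, the enzyme that opens the cascade and a target of the inhibitors. It stood at 2124, 2023 and 2174 CPM with Vehicle, at 2104, 2048 and 2302 CPM with ISO and at 1811, 1761 and 1784 CPM with SR-3420. In the inhibitor groups it was at 1816, 1669 and 1919 CPM in Vehicle, at 2090, 1952 and 1998 CPM in ISO and at 2073, 1924 and 2016 CPM in SR-3420. ISO samples overlapped those with Vehicle, while all 3 samples with SR-3420 lay below both. With inhibitors the order was the reverse, with the vehicle samples below those of both agents and no overlap.

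For Pnpla2 the direction under ISO depended on the scaling. The log2 fold change was 0.03 ± 0.07 (SE; 95% interval from -0.11 to 0.17, adjusted p = 0.733) under TMM and -0.28 (adjusted p = 0.015) under total counts, about the shift of the median gene. SR-3420 lowered Pnpla2 by both, at -0.24 ± 0.07 (adjusted p = 0.00548) under TMM and -0.40 (adjusted p = 0.00114) under total counts. With inhibitors ISO gave 0.16 ± 0.07 (adjusted p = 0.0473) under TMM and -0.07 (adjusted p = 0.577) under total counts. That rise was also lost on leaving out any of 7 libraries, ISO replicate 1, SR-3420 replicates 1 and 3, Lipase Inh. + Vehicle replicates 1 and 2 or Lipase Inh. + ISO replicates 1 and 3, with adjusted p up to 0.195. SR-3420 with inhibitors gave 0.15 (0.01 to 0.29, adjusted p = 0.256) under TMM and 0.04 (adjusted p = 0.858) under total counts. The effect of SR-3420 with inhibitors minus that without was 0.39 ± 0.10 (adjusted p = 0.00389) under TMM and 0.44 (adjusted p = 0.0192) under total counts. For ISO this difference was 0.13 (-0.07 to 0.33, adjusted p = 0.322) under TMM and 0.21 (adjusted p = 0.255) under total counts. Over all 18 samples Pnpla2 ranged from 1669 to 2302 CPM.

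Abhd5 (NM_026179, chr9:122260734-122290641, plus strand) encodes the co-activator of ATGL and the protein that SR-3420 binds. Its levels were 179, 168 and 213 CPM with Vehicle, 280, 312 and 267 CPM with ISO and 214, 193 and 217 CPM with SR-3420. With inhibitors they were 165, 176 and 169 CPM in Vehicle, 404, 396 and 359 CPM in ISO and 189, 198 and 213 CPM in SR-3420. Every ISO sample lay above every sample without ISO, and those with inhibitors lay above those without. SR-3420 samples overlapped the Vehicle samples where no inhibitor was given.

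ISO raised Abhd5 by 0.62 ± 0.08 on the log2 scale (adjusted p = 1.98e-06) under TMM and by 0.31 (adjusted p = 0.00671) under total counts. With inhibitors the rise was 1.18 ± 0.08 (adjusted p = 8.04e-11) under TMM and 0.96 (adjusted p = 4.19e-09) under total counts. The difference between these effects was 0.57 ± 0.12 (adjusted p = 0.000729) under TMM and 0.65 (adjusted p = 0.000668) under total counts. SR-3420 gave 0.16 (95% interval from -0.02 to 0.33, adjusted p = 0.122) under TMM and an adjusted p of 0.989 under total counts, and it passed under TMM, at 0.26 (adjusted p = 0.0124), only without Vehicle replicate 3. With inhibitors SR-3420 gave 0.24 (0.06 to 0.41, adjusted p = 0.134) under TMM and 0.13 (adjusted p = 0.515) under total counts, and the difference of the SR-3420 effects was 0.08 (-0.17 to 0.33, adjusted p = 0.657) and 0.13 (adjusted p = 0.528). Compared directly, Abhd5 was higher with ISO than with SR-3420 by 0.46 ± 0.08 (adjusted p = 0.000247) under TMM and 0.31 (adjusted p = 0.0139) under total counts. In the presence of inhibitors this was 0.95 ± 0.08 (adjusted p = 3.35e-09) and 0.83 (adjusted p = 5.73e-08).

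Lipe (NM_010719, chr7:26164546-26181006, minus strand) encodes HSL, a target of the inhibitors. In GENCODE it shares 264 exon bases with 4732471J01Rik on the opposite strand, and reads there could not be told apart if strand was not used in counting. GENCODE also extends Lipe to base 26183729, so the upstream window shown lies within the span annotated there. The levels were 1881, 1801 and 1729 CPM with Vehicle, 2759, 2687 and 2842 CPM with ISO and 2988, 3023 and 3218 CPM with SR-3420. With inhibitors they were 1511, 1649 and 1378 CPM in Vehicle, 1820, 1845 and 1689 CPM in ISO and 2381, 2383 and 2092 CPM in SR-3420. Lipe was the only member that both agents raised without inhibitors and that was higher with SR-3420 than with ISO in every sample, in each inhibitor state. The samples of Lipase Inh. + ISO overlapped those of Vehicle.

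Lipe rose with ISO by 0.62 ± 0.07 (adjusted p = 5e-07) under TMM and 0.31 (adjusted p = 0.00529) under total counts. With SR-3420 the rise was 0.77 ± 0.07 (adjusted p = 2.67e-08) and 0.61 (adjusted p = 5.47e-06). With inhibitors SR-3420 still raised Lipe, by 0.60 ± 0.07 (adjusted p = 3.23e-05) under TMM and 0.48 (adjusted p = 0.00261) under total counts, and the difference between these effects of SR-3420 was -0.18 (95% interval from -0.39 to 0.04, adjusted p = 0.23) and -0.13 (adjusted p = 0.488). ISO with inhibitors gave 0.24 ± 0.07 (adjusted p = 0.00937) under TMM, which did not pass without Lipase Inh. + Vehicle replicate 3 (0.18, adjusted p = 0.0666), and 0.01 (adjusted p = 0.906) under total counts. The ISO effect was smaller with inhibitors by -0.38 ± 0.11 (adjusted p = 0.00895) under TMM, but under total counts, Lars2 included, the -0.29 did not pass (adjusted p = 0.0892). The groups of this comparison do not hold the library in which Lars2 was abundant, but the total-count fit of all samples does. ISO minus SR-3420 was -0.16 (-0.31 to -0.000363, adjusted p = 0.123) under TMM and -0.30 (adjusted p = 0.0139) under total counts. With inhibitors it was -0.36 ± 0.07 (adjusted p = 0.000339) and -0.46 (adjusted p = 0.000133).

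Mgll (NM_011844, chr6:88674406-88778354, plus strand) encodes monoacylglycerol lipase, which the HSL inhibitor also targets. It shares 90 exon bases with the lincRNA Gm16628 on the opposite strand, whose exon covers all 300 bases of the upstream window shown. Levels were 659, 622 and 578 CPM with Vehicle, 1010, 1103 and 955 CPM with ISO and 653, 722 and 674 CPM with SR-3420. With inhibitors they were 542, 618 and 471 CPM in Vehicle, 456, 496 and 441 CPM in ISO and 724, 741 and 636 CPM in SR-3420. ISO samples were the highest of all groups without inhibitors and the lowest mean with them, where they overlapped the vehicle samples.

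ISO raised Mgll by 0.72 ± 0.09 (adjusted p = 4.98e-07) under TMM and 0.41 (adjusted p = 0.000625) under total counts. With inhibitors ISO lowered it, at -0.23 ± 0.09 (adjusted p = 0.032) under TMM and -0.45 (adjusted p = 0.000278) under total counts. The TMM result did not pass without Lipase Inh. + Vehicle replicate 1 or 2 or Lipase Inh. + ISO replicate 1 or 3, with adjusted p up to 0.254. The effect of ISO with inhibitors minus that without was -0.95 ± 0.12 (adjusted p = 4.05e-06) and -0.87 (adjusted p = 2.4e-05), so the difference held under both scalings. SR-3420 gave 0.14 (95% interval from -0.04 to 0.32, adjusted p = 0.19) under TMM and -0.02 (adjusted p = 0.878) under total counts. With inhibitors it gave 0.36 ± 0.09 (adjusted p = 0.0173) under TMM, and 0.25 (adjusted p = 0.18) under total counts, Lars2 included. In Lipase Inh. + SR-3420 replicate 2, where Lars2 took 18.3% of counts, Mgll was at 741 CPM under TMM and 652 CPM under total counts. The TMM rise was lost on leaving out Lipase Inh. + Vehicle replicate 1 or 3 or Lipase Inh. + SR-3420 replicate 1 or 2, with adjusted p up to 0.11. The difference of the SR-3420 effects was 0.22 (-0.03 to 0.48, adjusted p = 0.19) under TMM and 0.27 (adjusted p = 0.159) under total counts, Lars2 included. Under TMM it passed, at 0.33 (adjusted p = 0.0482), without Lipase Inh. + Vehicle replicate 2. Mgll was higher with ISO than with SR-3420 by 0.58 ± 0.09 (adjusted p = 3.51e-05) and lower by -0.59 ± 0.09 (adjusted p = 6.52e-06) when inhibitors were present, and under total counts these values were 0.43 (adjusted p = 0.00127) and -0.70 (adjusted p = 1.03e-06).

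Abhd6 (NM_025341, chr14:8835416-8889069, plus strand) encodes another monoacylglycerol hydrolase and was the lowest of the tested members, with 115 to 462 counts per library. It stood at 28.0, 21.4 and 26.5 CPM with Vehicle, 19.2, 20.9 and 23.3 CPM with ISO and 20.4, 23.4 and 22.0 CPM with SR-3420. Under inhibition it was at 25.1, 25.7 and 26.7 CPM in Vehicle, 14.8, 12.9 and 17.6 CPM in ISO and 28.9, 30.6 and 28.6 CPM in SR-3420. The 3 groups without inhibitors overlapped, and the 3 groups with inhibitors did not.

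ISO with inhibitors lowered Abhd6 by -0.76 ± 0.12 (adjusted p = 9.6e-06) under TMM and -0.98 (adjusted p = 2.03e-07) under total counts. Without inhibitors ISO gave -0.27 (95% interval from -0.51 to -0.03, adjusted p = 0.0578) under TMM and -0.57 (adjusted p = 0.000281) under total counts. Under TMM this passed on leaving out Vehicle replicate 2, ISO replicate 3 or Lipase Inh. + ISO replicate 2 or 3, with adjusted p down to 0.0119. The difference of the ISO effects was -0.49 ± 0.16 (adjusted p = 0.0266) under TMM, and -0.41 (adjusted p = 0.0766) under total counts. It was also lost under TMM without Vehicle replicate 2, ISO replicate 3, Lipase Inh. + Vehicle replicate 3 or Lipase Inh. + ISO replicate 1 or 2, with adjusted p up to 0.081. The total-count fit holds the library in which Lars2 was abundant, though the groups of this comparison do not. SR-3420 gave -0.21 (-0.44 to 0.03, adjusted p = 0.13) and -0.37 (adjusted p = 0.0124) without inhibitors, and 0.18 (-0.06 to 0.42, adjusted p = 0.505) and 0.08 (adjusted p = 0.774) with them. The difference of these effects was 0.39 (0.05 to 0.72, adjusted p = 0.0816) under TMM and 0.45 (adjusted p = 0.0596) under total counts, Lars2 included. Without Vehicle replicate 2, the lowest sample of its group, the TMM values became -0.31 (adjusted p = 0.0304) for SR-3420 vs Vehicle and 0.49 (adjusted p = 0.0251) for the difference. Abhd6 was lower with ISO than with SR-3420 in the inhibitor groups by -0.93 ± 0.12 (adjusted p = 8.87e-07) and -1.06 (adjusted p = 9.28e-08), and without inhibitors ISO minus SR-3420 was -0.06 (-0.30 to 0.18, adjusted p = 0.742) and -0.20 (adjusted p = 0.21).

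Pnpla3 (NM_054088, chr15:83998246-84019951, plus strand) encodes adiponutrin, a droplet-bound relative of ATGL. It was at 113, 128 and 104 CPM with Vehicle, at 59.2, 42.3 and 60.7 CPM with ISO and at 39.5, 39.6 and 46.1 CPM with SR-3420. In cells with inhibitors it was at 139, 163 and 111 CPM in Vehicle, 51.5, 59.5 and 56.6 CPM in ISO and 86.0, 83.4 and 75.5 CPM in SR-3420. All 12 stimulated samples lay below all 6 vehicle samples, and those of Lipase Inh. + SR-3420 lay above the other stimulated groups.

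Pnpla3 was the only member that fell in all 4 comparisons of an agent with its vehicle, under both scalings. With ISO the log2 fold change was -1.09 ± 0.13 (adjusted p = 3.83e-07) under TMM and -1.39 (adjusted p = 4.28e-09) under total counts. With SR-3420 it was -1.46 ± 0.13 (adjusted p = 8.21e-09) and -1.62 (adjusted p = 6.53e-10). With inhibitors ISO gave -1.30 ± 0.13 (adjusted p = 1.86e-08) and -1.52 (adjusted p = 4.81e-10), and SR-3420 gave -0.76 ± 0.13 (adjusted p = 0.000947) and -0.86 (adjusted p = 0.000319). The fall with SR-3420 was smaller with inhibitors, with a difference of 0.70 ± 0.18 (adjusted p = 0.00631) under TMM and 0.76 (adjusted p = 0.00471) under total counts. For ISO the difference was -0.21 (95% interval from -0.59 to 0.17, adjusted p = 0.412) and -0.13 (adjusted p = 0.649). Pnpla3 was higher with ISO than with SR-3420 by 0.37 ± 0.13 (adjusted p = 0.0417) under TMM and by 0.22 (adjusted p = 0.223) under total counts. The TMM result was lost on leaving out ISO replicate 1 or 3, SR-3420 replicate 1 or 2, Lipase Inh. + Vehicle replicate 1 or Lipase Inh. + ISO replicate 3, with adjusted p up to 0.172. With inhibitors the order was the opposite, at -0.54 ± 0.13 (adjusted p = 0.00148) and -0.66 (adjusted p = 0.000217).

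**Figure D3:**
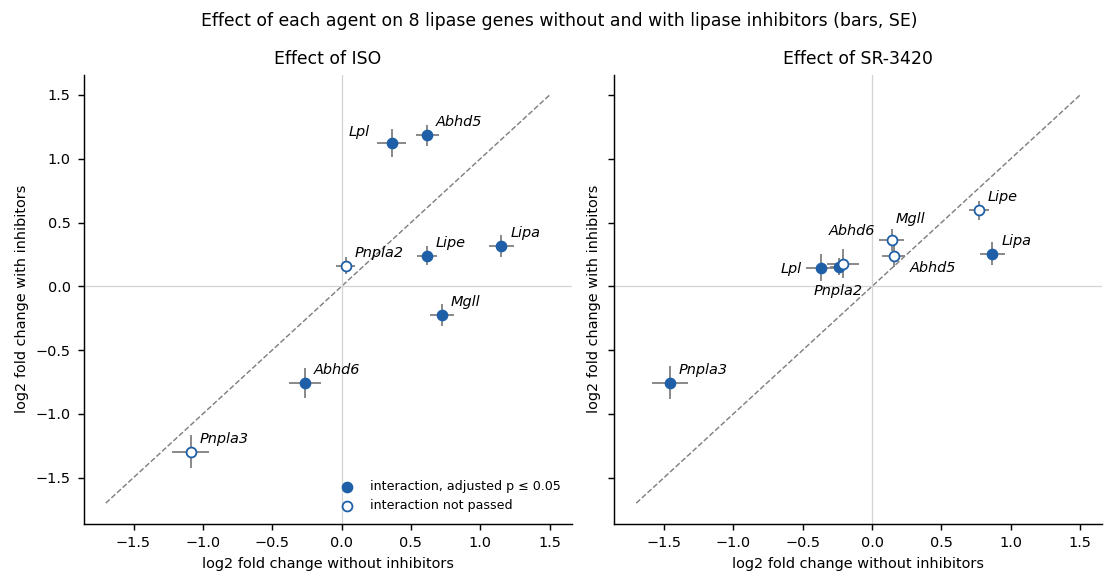
Log2 fold change of each of 8 lipase genes with ISO (left) and SR-3420 (right), without inhibitors on the horizontal and with inhibitors on the vertical axis, with SE bars, under TMM. On the dashed line the effects are equal. Filled points passed the test of the difference, 6 genes for ISO and 4 for SR-3420.

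Lipa (NM_001111100, chr19:34566806-34601964, minus strand) encodes lysosomal acid lipase. Its levels were 149, 158 and 169 CPM with Vehicle, 337, 407 and 314 CPM with ISO and 293, 289.5 and 286 CPM with SR-3420. With inhibitors they were 144, 143 and 150 CPM in Vehicle, 196, 155 and 193 CPM in ISO and 170, 174 and 178 CPM in SR-3420. All 6 stimulated samples without inhibitors lay above all 12 others. With inhibitors the stimulated samples still lay above the vehicle samples without overlap.

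ISO raised Lipa by 1.15 ± 0.09 (adjusted p = 4.53e-10) under TMM and 0.84 (adjusted p = 7.99e-08) under total counts, the largest rise of the 8 members with ISO. SR-3420 raised it by 0.87 ± 0.09 (adjusted p = 4.6e-08) and 0.71 (adjusted p = 1.75e-06). With inhibitors ISO gave 0.32 ± 0.09 (adjusted p = 0.00409) under TMM, but 0.09 (adjusted p = 0.449) under total counts, and SR-3420 gave 0.25 (95% interval from 0.07 to 0.44, adjusted p = 0.126) and 0.15 (adjusted p = 0.463). Lipa was the only member whose response to both agents was reduced by the inhibitors under both scalings. The difference was -0.84 ± 0.12 (adjusted p = 1.91e-05) and -0.76 (adjusted p = 0.000171) for ISO, and -0.61 ± 0.12 (adjusted p = 0.000886) and -0.56 (adjusted p = 0.0044) for SR-3420. ISO minus SR-3420 was 0.29 ± 0.09 (adjusted p = 0.016) under TMM, which did not pass without ISO replicate 2 (0.17, adjusted p = 0.148) or without SR-3420 replicate 3 (0.27, adjusted p = 0.0563), and 0.14 (adjusted p = 0.292) under total counts. With inhibitors it was 0.06 (-0.12 to 0.25, adjusted p = 0.583) and -0.06 (adjusted p = 0.654).

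Lpl (NM_008509, chr8:71404454-71430831, plus strand) encodes lipoprotein lipase and ranked 2 or 3 among all genes of every library by counts. It stood at 10103, 9645 and 12099 CPM with Vehicle, 13411, 12325 and 15143 CPM with ISO and 8591, 7675 and 8374 CPM with SR-3420. Under inhibition it was at 10786, 9917 and 11472 CPM in Vehicle, 23667, 21458 and 24857 CPM in ISO and 10933, 11006 and 13645 CPM in SR-3420. The 3 samples of Lipase Inh. + ISO lay above all 15 others, and those with SR-3420 alone lay below all others. Those of Vehicle, Lipase Inh. + Vehicle and Lipase Inh. + SR-3420 overlapped.

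With inhibitors ISO raised Lpl by 1.12 ± 0.11 (adjusted p = 1.26e-08) under TMM and 0.90 (adjusted p = 1.43e-06) under total counts. Without them ISO gave 0.36 ± 0.11 (adjusted p = 0.00756) under TMM, but 0.06 (95% interval from -0.20 to 0.32, adjusted p = 0.714) under total counts. The difference was 0.76 ± 0.15 (adjusted p = 0.000537) under TMM and 0.84 (adjusted p = 0.000877) under total counts. SR-3420 lowered Lpl, at -0.37 ± 0.11 (adjusted p = 0.00654) and -0.53 (adjusted p = 0.00115), and the TMM result did not pass without Vehicle replicate 3 (-0.27, adjusted p = 0.0514). With inhibitors SR-3420 gave 0.15 (-0.08 to 0.37, adjusted p = 0.568) and 0.04 (adjusted p = 0.913). The difference of the SR-3420 effects was 0.52 ± 0.15 (adjusted p = 0.0147) under TMM and 0.56 (adjusted p = 0.0237) under total counts. Lpl was higher with ISO than with SR-3420 in both inhibitor states, by 0.73 ± 0.11 (adjusted p = 2.85e-05) and 0.58 (adjusted p = 0.0011) without and by 0.98 ± 0.11 (adjusted p = 1.05e-07) and 0.86 (adjusted p = 2.8e-06) with inhibitors.

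Gpihbp1 (NM_026730, chr15:75427088-75428643, plus strand), whose protein holds lipoprotein lipase on capillary endothelium, had 4 counts in all 18 libraries together, in 3 of them, and at most 2 in any library. A count of 0 allows up to 0.187 CPM in ISO replicate 1, the deepest library without a count of Gpihbp1. In the shallowest library it allows up to 0.704 CPM, taking 3 counts as the limit in each. These limits cover counting error only. No difference between groups was detectable at this depth, and the endothelial markers were also at or near 0.

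The agents were compared directly in each inhibitor state. Without inhibitors 6 members were higher with ISO than with SR-3420 and 0 were lower in edgeR under TMM, beside 15.8% and 13.9% of all genes, with Lipe lower at an unadjusted p under 0.05. DESeq2 gave the same calls. Under total counts 3 were higher, Abhd5, Lpl and Mgll, and 1, Lipe, was lower, beside 6.38% and 25%. Of Pnpla2, ISO minus SR-3420 was 0.27 ± 0.07 (adjusted p = 0.00468) under TMM and 0.12 (adjusted p = 0.344) under total counts, and with inhibitors 0.01 (95% interval from -0.13 to 0.15, adjusted p = 0.946) and -0.11 (adjusted p = 0.354). With inhibitors Abhd5 and Lpl were higher and Abhd6, Lipe, Mgll and Pnpla3 lower under both scalings. The background was 28.6% higher and 28.3% lower under TMM, and 20.3% and 34.6% under total counts. Past both thresholds under TMM, where no member passed, were 2.04% of all genes without and 13.2% with inhibitors. Under total counts Abhd6 passed both with inhibitors, as did 14.3% of all genes.

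The test of whether the inhibitors altered the response to ISO was passed by Abhd5 and Lpl in the positive direction and by Abhd6, Lipa, Lipe and Mgll in the negative direction. Among all genes 14.9% were positive and 16.6% negative under TMM, with 6.89% past both thresholds. Under total counts, Lars2 included, 2 members were positive and 2 negative, beside 17% and 12% of all genes, since Abhd6 and Lipe did not pass. For SR-3420, Lpl, Pnpla2 and Pnpla3 were positive and Lipa negative under TMM and under total counts, Lars2 included. The background was 12.5% and 14.8% under TMM, with 3.82% past both thresholds, and 12.9% and 10.2% under total counts. This comparison holds the library in which Lars2 was abundant. With Lars2 left out of the totals more members were positive, beside 2643 of 12175 genes. No member passed both thresholds in these tests under TMM.

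The ratio of 2 genes within a library does not depend on the scaling, and is given here in counts per counted base with no test. Lipe to Pnpla2 was 0.936 ± 0.0585 (mean ± SD, n = 3) with Vehicle, 1.41 ± 0.0486 with ISO and 1.88 ± 0.0846 with SR-3420, with no overlap between these groups. With inhibitors it was 0.924 ± 0.148 in Vehicle, 0.969 ± 0.0567 in ISO and 1.25 ± 0.11 in SR-3420. The inhibitor groups with Vehicle and with ISO overlapped, and that with SR-3420 lay above both. Mgll to Lipe was 0.225 ± 0.00531 with Vehicle, 0.243 ± 0.0246 with ISO and 0.146 ± 0.00988 with SR-3420, so SR-3420 samples lay below the others. With inhibitors the same ratio was 0.235 ± 0.0108 in Vehicle, 0.171 ± 0.00603 in ISO and 0.201 ± 0.00252 in SR-3420, and the lowest group was ISO. Abhd5 to Pnpla2, the co-activator relative to its lipase, was 0.0741 ± 0.00693 with Vehicle and 0.112 ± 0.0152 with ISO. It reached 0.161 ± 0.00968 with ISO and inhibitors, above all other samples. Lpl to Pnpla2 was 3.27 ± 0.302 with Vehicle and 7.54 ± 0.494 with ISO and inhibitors, with all other samples at 4.40 or less.

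**Figure D4:**
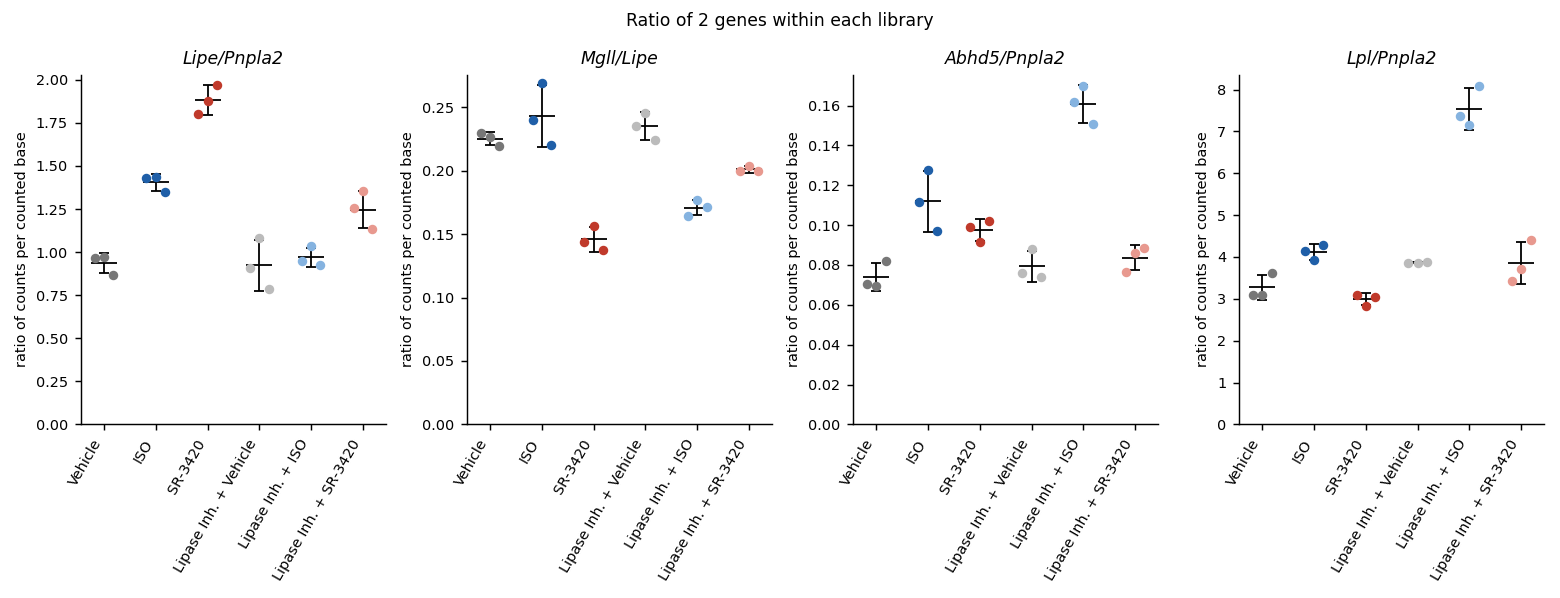
Ratio of counts per counted base between pairs of lipase genes within each library, on linear axes from 0 (points, single samples; line and bar, mean and SD of 3). Lipe to Pnpla2 was highest with SR-3420, Mgll to Lipe was lowest with SR-3420, and Abhd5 to Pnpla2 and Lpl to Pnpla2 were highest with ISO and inhibitors.

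For each tested member the genes with the most similar course over the 18 samples were found by Pearson's r of log2 CPM, among genes averaging 3 or more in log2 CPM. The samples fall into 6 groups and share their libraries, so r is a description and has no p. Lpl was most like Serinc3 (r = 0.98) and Hacl1 (0.979), Abhd5 most like Map2k4 (0.979) and Cmip (0.978), and Lipa most like Ccrn4l (0.976) and Rab3ip (0.976). Lipe was most like Ppp1r15b (0.956) and Ipo9 (0.943), Pnpla3 most like Ttll12 (0.945) and Mxd4 (0.934), and Abhd6 most like Appl2 (0.939) and N4bp2l1 (0.938). Mgll was most like Arxes2 (0.934) and Ppargc1b (0.928). Pnpla2 had no gene as close, its nearest being Eci2 (0.791) and Nadk (0.789).

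Of 14 genes of ATGL regulators and droplet proteins, all of them tested, 5 rose and 2 fell with ISO, where 26.8% of all genes rose and 25% fell, and 7 rose and 1 fell with SR-3420, where 26% rose and 25.4% fell. With inhibitors 7 rose and 2 fell with ISO, beside 29.4% and 28.3% of all genes, and 3 rose and 0 fell with SR-3420, where 8 were higher at an unadjusted p under 0.05 and 0 were lower. Of all genes 2.99% rose and 1.36% fell there. Total counts turned the balance for ISO, to 3 higher and 5 lower without and 4 higher and 6 lower with inhibitors, beside 12.3% and 49.4% and then 16.2% and 42.1% of all genes. For SR-3420 total counts gave 5 higher and 1 lower without inhibitors, beside 16% and 35.9% of all genes. With inhibitors 2 were higher and 0 lower, beside 0.946% and 1.89% of all genes. The list median was 0.27 with ISO and 0.32 with SR-3420, beside -0.02 and -0.02 for all genes, and under total counts it was -0.04 and 0.16. Hilpda, whose product inhibits ATGL, was at 20.2, 13.2 and 17.2 CPM with Vehicle, 318, 438 and 210.1 CPM with ISO and 318, 397 and 316 CPM with SR-3420. It rose by 4.25 ± 0.20 (adjusted p = 2.66e-13) with ISO, by 4.34 ± 0.20 (adjusted p = 3.75e-13) with SR-3420 and by 1.59 ± 0.21 (adjusted p = 1.15e-06) with ISO and inhibitors, and under total counts by 3.94, 4.18 and 1.36. The inhibitors reduced its response to SR-3420 by -3.74 ± 0.30 (adjusted p = 1.51e-08). Plin2, a droplet coat protein, was at 347, 320.3 and 287 CPM with Vehicle, 1727, 2160 and 1483 CPM with ISO and 171, 167 and 185 CPM with ISO and inhibitors. ISO raised Plin2 by 2.49 ± 0.12 (adjusted p = 1.4e-13; 2.18 under total counts) without inhibitors. With them ISO lowered it, at -0.64 ± 0.11 (adjusted p = 4.84e-05; -0.86 under total counts). The difference of these ISO effects was -3.13 ± 0.16 (adjusted p = 5.18e-12; -3.04 under total counts). G0s2, another ATGL inhibitor, differed between the agents. It was at 276, 303 and 261 CPM with ISO and 1101, 1120 and 1062 CPM with SR-3420, lower with ISO by -1.96 ± 0.18 (adjusted p = 5.35e-08) without and by -1.55 ± 0.18 (adjusted p = 2.43e-07) with inhibitors, and by -2.11 and -1.66 under total counts.

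Of 16 genes of LPL partners and related vascular lipases, 13 were tested. With ISO 5 rose and 2 fell, with SR-3420 7 rose and 2 fell, with ISO and inhibitors 4 rose and 6 fell, and with SR-3420 and inhibitors 0 passed in edgeR, with 3 higher at an unadjusted p under 0.05. The shares of all genes are those given for the list above, 26.8% and 25% for ISO, 26% and 25.4% for SR-3420, and 29.4% and 28.3% for ISO with inhibitors. For SR-3420 with inhibitors they were 2.99% and 1.36%, so a count of 0 was near this share. Under total counts 3 were higher and 7 lower with ISO, 5 and 4 with SR-3420 and 3 and 6 with ISO and inhibitors, beside 12.3% and 49.4%, 16% and 35.9%, and 16.2% and 42.1% of all genes. The list median was 0.02 with ISO and 0.42 with SR-3420, beside -0.02 and -0.02 for all genes, and -0.29 and 0.26 under total counts. Angptl4, which inactivates lipoprotein lipase, was at 554, 596 and 408 CPM with Vehicle, 392, 475 and 305 CPM with ISO and 1264, 1439 and 1377 CPM with SR-3420. Inhibitor groups had 604, 654 and 569 CPM in Vehicle, 191, 177 and 232 CPM in ISO and 878, 878 and 702 CPM in SR-3420. Angptl4 was thus lowest in the group in which Lpl was highest, and highest in the group in which Lpl was lowest. With inhibitors ISO lowered it by -1.60 ± 0.14 (adjusted p = 3.97e-09; -1.83 under total counts), and ISO minus SR-3420 was -1.80 ± 0.14 (adjusted p = 6.08e-09; -1.95 under total counts) without inhibitors and -2.03 ± 0.15 (adjusted p = 1.25e-10; -2.14 under total counts) with them. Sdc1, a heparan sulphate proteoglycan of the cell surface, rose with ISO and inhibitors by 2.51 ± 0.12 (adjusted p = 8.32e-14; 2.28 under total counts), from 123, 134 and 131 CPM to 711, 782 and 707 CPM. Vldlr, a lipoprotein receptor, rose with SR-3420 by 1.40 ± 0.12 (adjusted p = 3.76e-09; 1.24 under total counts), and the inhibitors reduced this response by -1.07 ± 0.17 (adjusted p = 9.47e-05). ISO raised Vldlr by 0.94 ± 0.12 (adjusted p = 1.06e-06; 0.63 under total counts) without inhibitors. With them ISO lowered it, at -0.88 ± 0.13 (adjusted p = 5.93e-06; -1.11 under total counts). The difference of these ISO effects was -1.82 ± 0.18 (adjusted p = 6.93e-08). Lipg, endothelial lipase, rose with ISO by 1.90 ± 0.25 (adjusted p = 1.6e-06; 1.60 under total counts), from 1.39, 1.70 and 1.68 CPM to 4.58, 7.30 and 5.98 CPM.

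Other acylglycerol and ester hydrolases comprised 16 genes, of which 13 were tested. With ISO 4 rose and 4 fell, with SR-3420 3 rose and 7 fell, with ISO and inhibitors 1 rose and 6 fell, and with SR-3420 and inhibitors 1 rose and 0 fell in edgeR, with 2 higher and 0 lower at an unadjusted p under 0.05. The corresponding shares of all genes were 26.8% and 25%, 26% and 25.4%, 29.4% and 28.3%, and 2.99% and 1.36%. Under total counts 4 were higher and 7 lower with ISO, 3 and 9 with SR-3420 and 1 and 10 with ISO and inhibitors, beside 12.3% and 49.4%, 16% and 35.9%, and 16.2% and 42.1% of all genes. Their median was -0.01 with ISO and -0.42 with SR-3420, beside -0.02 and -0.02 for all genes, and under total counts -0.32 and -0.58. Pnpla8, a phospholipase of the patatin family to which ATGL belongs, rose with ISO by 1.07 ± 0.10 (adjusted p = 1.34e-08; 0.76 under total counts), from 286, 303 and 352 CPM to 643, 585 and 744 CPM. Pnpla7, a lysophospholipase of the same family, was lower in Lipase Inh. + ISO than in Lipase Inh. + SR-3420 by -1.05 ± 0.17 (adjusted p = 2.38e-05; -1.19 under total counts). The ISO effect on Dagla, a diacylglycerol lipase, was lower with inhibitors by -1.33 ± 0.21 (adjusted p = 3.47e-05; -1.24 under total counts).

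All 11 genes of lysosomal lipid handling, a list without Lipa, were tested. With ISO 1 rose and 1 fell, and with SR-3420 1 rose and 3 fell. With ISO and inhibitors 6 rose and 1 fell, and with SR-3420 and inhibitors 0 passed in edgeR, with 1 higher at an unadjusted p under 0.05. Among all genes 26.8% rose and 25% fell with ISO, 26% and 25.4% with SR-3420, and 29.4% and 28.3% with ISO and inhibitors. Total counts gave 0 higher and 5 lower with ISO, 1 and 6 with SR-3420 and 5 and 3 with ISO and inhibitors, beside 12.3% and 49.4%, 16% and 35.9%, and 16.2% and 42.1% of all genes. The list median was 0.25 with ISO and inhibitors, beside -0.01 for all genes, and 0.02 under total counts. Tfeb, a transcription factor of lysosomal genes, was at 31.5, 31.4 and 25.1 CPM with Vehicle and 32.3, 30.5 and 39.1 CPM with ISO, which overlapped. It rose with ISO and inhibitors by 1.19 ± 0.12 (adjusted p = 1.93e-08; 0.96 under total counts), from 25.7, 27.0 and 23.1 CPM to 54.6, 67.6 and 50.5 CPM. Npc1, a lysosomal cholesterol transporter, fell in the same comparison by -1.10 ± 0.14 (adjusted p = 7.27e-07; -1.33 under total counts), from 126, 102 and 165 CPM to 65.2, 52.2 and 65.5 CPM.

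**Figure D5:**
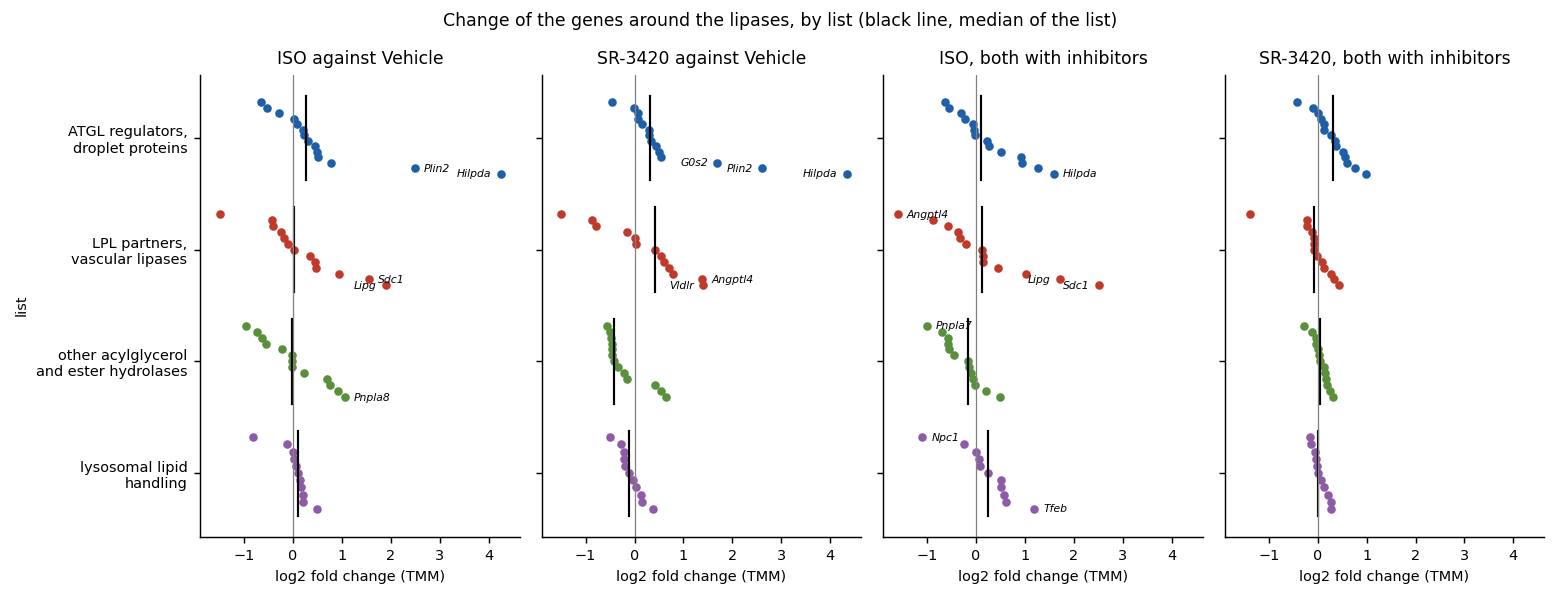
Log2 fold change (TMM) of the tested genes of 4 lists around the lipases in 4 comparisons, with the median of each list as a black line and the genes chosen by the naming rule labelled where the change was at least 1 in either direction. Hilpda and Plin2 lay farthest to the right without inhibitors.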

How the data were processed

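RNA-seq was carried out on 18 samples in 6 groups of 3, with group and replicate number read from each title. The authors made TruSeq libraries, aligned reads to mm9 with STAR 2.4.2a, and summarised them per RefSeq gene with HOMER and iRNA-seq. The deposited values are raw counts, neither normalised nor filtered, for 20295 genes, with 0 genes left unnamed and 0 columns of other samples. The study's methods state that 1 read per position and length was kept, yet Lpl reached 121 counts per counted base, so that filter was not seen in these values. Whether strand was used in counting is not stated. The table's start positions are 0-based and were printed 1-based. No molecular identifiers are described. Total counts were 4263755 in the shallowest library and 10310447 to 21205032 in the others.

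The analysis of counts used edgeR 4.0.16 (R 4.3.3). The filter on low counts was filterByExpr (minimum count 10, minimum total 15), libraries were scaled by TMM factors, and 1 quasi-likelihood model with a mean per group was fitted to all 18 samples (glmQLFit, glmQLFTest), with Benjamini-Hochberg adjustment over 12156 genes. That fit also gave the standard errors and 95% intervals. The study's methods speak of independent experiments, while the labels do not say what a replicate number marks. Alternatives were total counts, total counts without Lars2, RLE factors, DESeq2 1.42.0, a laxer and a stricter low-count filter, a fit of the compared groups alone, the replicate number as a block and each library left out. On simulated counts for ISO vs Vehicle, 197 of 200 genes changed 3-fold were recovered (98.5%) among 12001 genes tested, with 0 false calls. A simulated gene was called only past both thresholds, that of adjusted p and that of the log2 fold change. Calls on adjusted p alone, as used for the members, were thus not tried on simulated counts. The genes named are the 9 members, for each list and comparison the gene with the largest change in each direction past both thresholds (average log2 CPM 1 or more), the 2 genes most like each member, the cell type markers and Lars2. Of the genes the rule gives, some are described in a subset of their comparisons. The members and lists were chosen with earlier results of these data known. Sequences were read from the mm9 genome, and overlaps with other genes from GENCODE vM1 of that build.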

Additional observations from a re-analysis of the deposited data

Results flagged for a closer look

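The response of 8 lipase genes to each agent was compared between cells with and without lipase inhibitors, and 10 results are given here because the effect differed between these states by the test of the difference itself. All values are the log2 effect with inhibitors minus the effect without, under TMM. For ISO the difference was 0.76 for Lpl, 0.57 for Abhd5, -0.38 for Lipe, -0.49 for Abhd6, -0.84 for Lipa and -0.95 for Mgll. For SR-3420 it was 0.70 for Pnpla3, 0.52 for Lpl, 0.39 for Pnpla2 and -0.61 for Lipa. Under total counts, Lars2 included, those of Lipe and Abhd6 for ISO did not pass, and the other 8 did. That fit holds the library in which Lars2 took 18.3% of counts, and some calls without Lars2 are given in the next section. Lpl and Lipa passed for both agents, Lpl with positive and Lipa with negative values, and both comparisons share the control samples.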

How the results depend on the processing

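The 9 comparisons of 8 members gave 72 results under TMM, and RLE factors and a filter at a CPM of at least 1 in at least 3 samples kept the direction and call of all 72. Total counts kept 53. Under total counts, with and without Lars2, the lower members with ISO numbered 3 and the higher members with ISO and inhibitors 2, and 3 were higher and 1 lower in ISO vs SR-3420. Without Lars2 the matching numbers among 12175 genes were 6270, 2110, 948 and 3506. Total counts with Lars2 also gave 1 higher with SR-3420 and inhibitors and 2 negative for the ISO difference, and without Lars2 5 members were positive for the SR-3420 difference. For that difference 2643 of 12175 genes were positive without Lars2, against 1565 of 12156 with it. Pnpla2 turned its sign, to -0.28 with ISO under both, to -0.0651 and -0.0648 with ISO and inhibitors, and to -0.11 and -0.19 in Lipase Inh. + ISO vs Lipase Inh. + SR-3420, where only the latter passed. Under both, values that passed under neither scaling also turned for Mgll and Abhd5 with SR-3420, Lpl with inhibitors alone and Lipa in Lipase Inh. + ISO vs Lipase Inh. + SR-3420. These totals move with the abundant genes, and the cause of each turn was not tested. DESeq2 gave 2 lower members with inhibitors alone, beside 82 of 7913 genes. A fit of only the groups compared gave 1 higher with SR-3420 and inhibitors, beside 231 of 11774 genes. Without a filter on low counts 71 results were kept, and Pnpla2 with ISO and inhibitors (0.17, adjusted p = 0.0629) was not. Leaving out each library gave 1296 refits, of which 30 lost and 8 gained a call and 0 called values changed sign. The lower members with ISO ranged from 1 to 2 and the higher members with SR-3420 and inhibitors from 1 to 2. With the replicate number as a replicate block, 5 results gained a call, 2 members were lower with ISO and 2 lower with inhibitors alone (Lipe, adjusted p = 0.0465, and Pnpla2, 0.0378). Among all 12156 genes of that fit, 3347 were lower with ISO and 122 with inhibitors alone. Same-numbered samples deviated from their group means with a mean r of -0.0118, 0.15 and 0.19 for numbers 1, 2 and 3, with 1, 12 and 15 of 15 pairs over 0.1, and 12 of 18 samples correlated best with their own number, a hint from the data only. Depth limits Abhd6 (at least 115 counts) and leaves Gpihbp1 untested, and p-values over 3 samples measure the spread between these samples, which may be technical.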
